A study of Mus musculus with 28 samples.

Results

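Most histone genes are transcribed in S phase, lack introns and give mRNAs that end in a stem-loop instead of a poly(A) tail. A smaller set, the replication-independent histone genes, is transcribed throughout the cell cycle, carries introns and gives polyadenylated mRNAs for the histone variants that replace the canonical histones in chromatin. The set described here holds 5 such genes of the mouse, chosen by name, of 24984 genes listed in the nascent RNA tables of this study. All 5 were found in each of the 3 tables. H3f3a and H3f3b both encode histone H3.3, which is placed at active genes and enhancers by the HIRA complex and at telomeres and other repeats by DAXX and ATRX. H2afz and H2afv encode the closely related variants H2A.Z.1 and H2A.Z.2, which the SRCAP and EP400 complexes bring to promoters. H2afy encodes macroH2A1, a histone with a large macrodomain that is known from the inactive X chromosome and from silent genes, and whose transcript is spliced in alternative forms.

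Bru-seq was used to measure nascent RNA in mouse embryonic stem cells (mESCs) of the CCE28 line, WT or labelled EloA null, grown in LIF and 2i (PD0325901 and CHIR99021) and freed of feeder fibroblasts. EloA is elongin A, the transcriptionally active subunit of the elongin complex. In Bru-seq, cells take up 5-bromouridine (BrU), and the RNA made during the pulse is purified with an antibody. The cells had 2 mM BrU for 10 min without drug (steady state), or were held for 60 min in 1 µM flavopiridol (FP), an inhibitor of the P-TEFb kinase that releases paused Pol II, washed, and given 2 mM BrU for the first 5 or 10 min of recovery. Each of the 6 groups had 2 libraries, 12 in all. The pulse was 5 min in the 5-min recovery, and 10 min in the 10-min recovery and in steady state. Recovery time and pulse length therefore cannot be told apart between the recoveries. Likewise, FP with its recovery cannot be told apart from pulse length between the 5-min recovery and steady state. The study describes the duplicates as independent experiments.

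The libraries held between 9857527 and 28547356 reads. Eloa RNA was not absent from the libraries labelled EloA null: its steady-state level was 1.17 ± 0.0149 RPKM in WT and 1.92 ± 0.0503 RPKM in those libraries (SD, n = 2 each), and it was also the higher of the genotypes in both recoveries. The labels do not name the deleted part of the gene, so these values do not check the deletion, and genotype is given as labelled throughout. Apart from Bru-seq, the study compared EloA protein in WT and null cells by immunoblot. It also reported an EloA binding signal near background in null cells at a ribosomal RNA gene. One library, replicate 1 of the EloA null steady state, is EloA null in its title but wild type in its genotype label, and the labels name CJ7 mES cells in one protocol and CCE28 in another. All 10 embryonic stem cell markers exceeded 0.5 RPKM in every library, with Nanog between 13.3 and 34.1 RPKM and Pou5f1 between 5.67 and 18.3 RPKM. Of 10 feeder fibroblast markers, 2 exceeded 0.5 RPKM in any library, and the 10 together reached 0.921 to 2.75 RPKM, with Dcn and Lum at 0 in some libraries and never above 0.0308 RPKM.

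The 5 genes differ much in size, which decides how many reads stand behind each value. Positions are of GRCm38.p6, with the current RefSeq symbol where it differs. H3f3a lies on the minus strand at chr1:180802560-180813605 and has 4 exons, of which the third ends 3488 bases and the fourth begins 10400 bases past the start. H3f3b lies on the minus strand at chr11:116021961-116026039, and its curated transcript covers 2544 bases of this span. H2afz (H2az1) lies on the plus strand at chr3:137864487-137866922. H2afv (H2az2) lies on the minus strand at chr11:6427226-6444511. H2afy (Macroh2a1) lies on the minus strand at chr13:56073622-56135626 and contains the lncRNA gene Gm31485, so its reads may include those of that RNA.

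The deposited values are RPKM, reads scaled to the length of the gene and the size of the library. For all 5 genes they stood for whole numbers of reads when the length was that of the introns of the curated transcripts plus 1 exon base on each side, although the methods of the study speak of whole genes. The values were therefore read as describing unspliced RNA. The counted length was 9966 bases for H3f3a, 557 bases for H3f3b, 1444 bases for H2afz, 15702 bases for H2afv and 60084 bases for H2afy. The coding exons, which are alike between paralogues, were almost wholly outside these lengths. H3f3b rested on 18 to 190 reads per library and H2afz on 90 to 488, against 1369 to 6699 for H3f3a, 109 to 1026 for H2afv and 1200 to 6297 for H2afy.

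**Figure D1:**
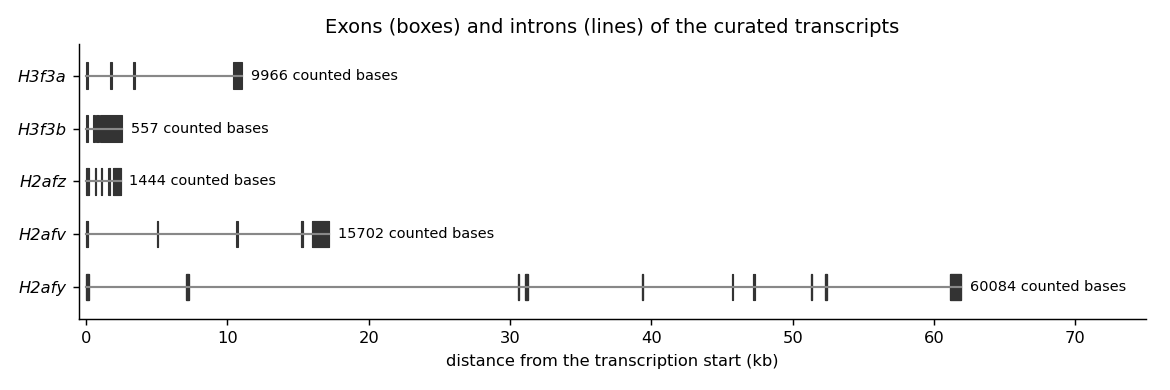
Exons (boxes) and introns (lines) of the curated RefSeq transcripts of the 5 genes, drawn over one another by distance from the transcription start in kb. The counted bases, printed beside each gene, are 557 in H3f3b and 60084 in H2afy.

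The paralogues of each pair make the same or a closely related protein from different promoters. The 250 bases before the start of the curated transcripts of each of these 4 genes are shown, from RefSeq on GRCm38.p6. They run 5′ to 3′ on the strand of the gene. For H3f3b wholly, and for H2afv in part, they lie within the annotated gene span, which reaches further upstream. A link between these letters and the recovery after FP was not tested, and the paralogues also differ in span. Capitals mark matches on either strand to the letters of 3 promoter motifs. The TATA box was searched as TATAAA. The CCAAT box appears as ATTGG where its match is on the other strand. The GC box was searched as GGGCGG and likewise appears as CCGCCC. Neighbouring matches may overlap.
H3f3a, chr1:180813606-180813855, minus strand: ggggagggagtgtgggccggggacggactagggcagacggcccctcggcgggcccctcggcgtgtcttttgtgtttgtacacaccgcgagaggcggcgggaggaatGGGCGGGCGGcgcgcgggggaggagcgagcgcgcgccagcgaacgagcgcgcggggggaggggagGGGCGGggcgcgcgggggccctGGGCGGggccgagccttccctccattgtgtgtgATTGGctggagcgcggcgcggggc
H3f3b, chr11:116024505-116024754, minus strand: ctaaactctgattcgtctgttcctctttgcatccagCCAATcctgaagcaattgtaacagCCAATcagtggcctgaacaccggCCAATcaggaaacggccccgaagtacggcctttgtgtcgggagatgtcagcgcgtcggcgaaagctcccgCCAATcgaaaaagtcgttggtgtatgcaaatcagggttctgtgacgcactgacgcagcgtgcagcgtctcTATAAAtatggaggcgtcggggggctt
H2afz, chr3:137864237-137864486, plus strand: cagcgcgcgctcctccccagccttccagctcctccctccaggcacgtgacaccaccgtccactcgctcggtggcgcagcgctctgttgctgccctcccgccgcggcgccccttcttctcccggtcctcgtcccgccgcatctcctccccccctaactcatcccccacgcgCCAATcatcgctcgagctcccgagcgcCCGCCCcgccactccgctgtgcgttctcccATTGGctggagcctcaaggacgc
H2afv, chr11:6444444-6444693, minus strand: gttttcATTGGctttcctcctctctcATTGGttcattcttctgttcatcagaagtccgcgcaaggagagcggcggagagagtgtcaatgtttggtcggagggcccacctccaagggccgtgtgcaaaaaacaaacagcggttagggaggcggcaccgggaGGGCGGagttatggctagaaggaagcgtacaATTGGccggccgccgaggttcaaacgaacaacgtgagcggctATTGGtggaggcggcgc
The promoters of the H3.3 genes had little in common in these letters. That of H3f3a held no TATA box, 1 CCAAT box and 4 GC boxes in these terms, the first 2 of the latter overlapping, with 77.2% G and C. The promoter of H3f3b held 1 TATA box, 4 CCAAT boxes and no GC box, with 54% G and C. The H2A.Z promoters both lacked a TATA box match and both held 1 GC box match, beside 2 CCAAT box matches in H2afz and 4 in H2afv, at 71.2% and 57.2% G and C. Of 32851 promoters in the RefSeq table, 12.4% held the TATA box letters, 33.8% those of the CCAAT box and 32.7% those of the GC box in the same 250 bases.

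In steady state, the genes for H3.3 and H2A.Z.1 were among those with higher nascent RNA levels by these RPKM values, and H2afy and H2afv were lower. H3f3b stood at 9.84 RPKM in both WT libraries and at 9.62 and 12.2 RPKM in the libraries labelled EloA null. H2afz stood at 7.68 and 8.88 RPKM in WT and at 10.6 and 12.1 RPKM in the libraries labelled EloA null. H3f3a stood at 7.84 and 7.35 RPKM in WT and at 8.64 and 8.06 RPKM in the libraries labelled EloA null. These 3 genes ranked above at least 92.2% of the genes over 0.5 RPKM in each library. H2afy stood at 3.72 and 3.42 RPKM in WT and at 3.53 and 3.75 RPKM in the libraries labelled EloA null. H2afv was the lowest, at 1.97 and 1.82 RPKM in WT and 1.89 and 1.78 RPKM in the libraries labelled EloA null. In WT the order of the means was H3f3b, H2afz, H3f3a, H2afy and H2afv, of which the libraries of H2afz and H3f3a overlapped. With the label EloA null, H2afz and H3f3b changed places and overlapped, and the remaining neighbours did not overlap in either genotype.

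At 5 min of recovery H3f3a stood apart from the other members. H3f3a reached 13.9 and 11.3 RPKM in WT and 12.2 and 13.3 RPKM in the libraries labelled EloA null, above every steady-state library. Its paralogue H3f3b stood at 5.10 and 4.25 RPKM in WT and at 2.71 and 4.68 RPKM in the libraries labelled EloA null, below every steady-state library. The lowest of these values rests on 18 reads, and its 95% Poisson interval, which covers counting error only, has a lower bound of 1.61 RPKM. H2afz stood at 6.32 and 6.56 RPKM in WT and at 5.81 and 6.74 RPKM in the libraries labelled EloA null, again below all 4 steady-state libraries. H2afv stood at 0.833 and 0.739 RPKM in WT and at 0.583 and 0.638 RPKM in the libraries labelled EloA null. H2afy stood at 2.20 and 1.58 RPKM in WT and at 1.74 and 1.38 RPKM in the libraries labelled EloA null. The order of the means was H3f3a, H2afz, H3f3b, H2afy and H2afv in both genotypes, and no neighbours in it overlapped.

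At 10 min of recovery the RPKM of H3f3a and H2afv was above, and that of H2afy below, all steady-state libraries. H3f3a stood at 20.0 and 22.7 RPKM in WT and at 26.2 and 23.5 RPKM in the libraries labelled EloA null. H3f3b stood at 8.39 and 6.19 RPKM in WT and at 9.08 and 9.62 RPKM in the libraries labelled EloA null above the 5-min libraries of the genotype as deposited. H2afz stood at 5.41 and 7.25 RPKM in WT and at 7.18 and 8.01 RPKM in the libraries labelled EloA null. The WT libraries of H2afz at 10 min spanned those at 5 min, so that no step between the time points was seen there. H2afv stood at 2.31 and 2.75 RPKM in WT and at 2.58 and 2.29 RPKM in the libraries labelled EloA null, above all of its 5-min and steady-state libraries. H2afy stood at 1.74 and 1.44 RPKM in WT and at 1.68 and 1.49 RPKM in the libraries labelled EloA null, within the range of its 5-min libraries. In the order of the means H3f3a came first, then H3f3b, H2afz, H2afv and H2afy, and H3f3b and H2afz overlapped in WT.

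**Figure D2:**
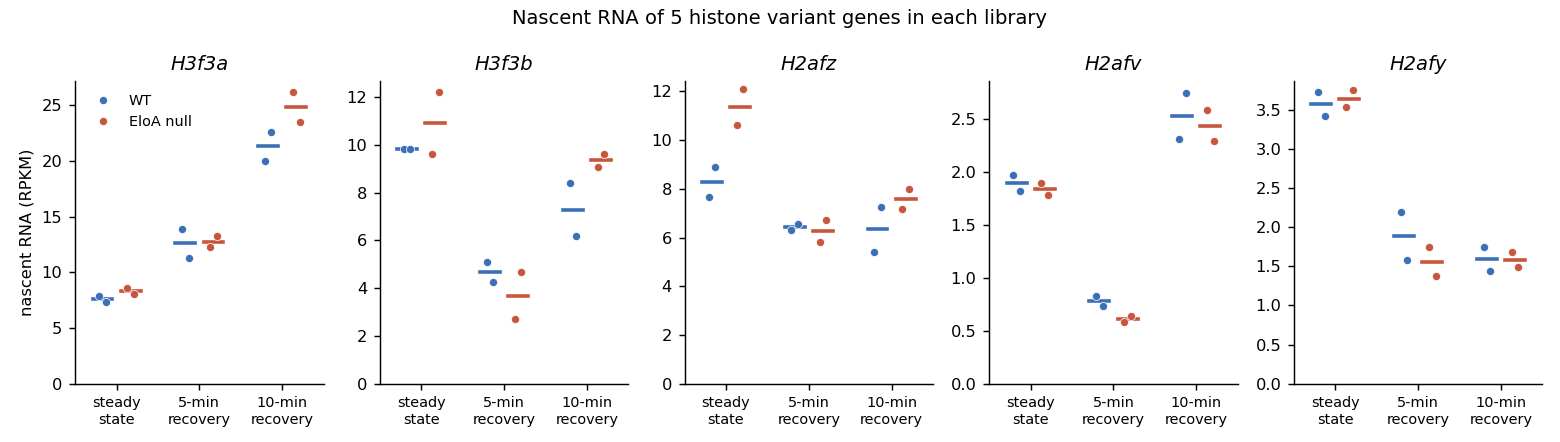
Nascent RNA (RPKM, linear axes from 0) of the 5 genes in each of the 12 libraries, by condition, with WT in blue and libraries labelled EloA null in red; points are libraries and bars are means of 2. H3f3a is highest at 10 min of recovery, from 20.0 to 26.2 RPKM, while H2afy is highest in steady state, from 3.42 to 3.75 RPKM.

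The question of the FP experiment was how far Pol II moves into genes once the block is lifted, so the recovery of each gene was set against that of genes of like span. The ratio of each recovery library to the mean steady-state RPKM of its genotype was computed. The 3 tables were normalized separately and RPKM is relative to the total of a library, so these ratios are descriptions with no test, and a loss or gain of nascent RNA across all genes cannot be seen in them. Both recovery comparisons share the same steady-state libraries. Over all genes above 0.5 RPKM in steady state, the median ratio at 5 min was 0.631 in WT (10796 genes) and 0.560 in the libraries labelled EloA null (11130 genes), and at 10 min it was 1.03 and 1.02.

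H3f3a recovered to 1.66 ± 0.245 times its steady-state level at 5 min in WT (SD, n = 2) and to 1.53 ± 0.0879 times in the libraries labelled EloA null. At 10 min its ratio was 2.81 ± 0.248 in WT and 2.98 ± 0.228 in the libraries labelled EloA null. Genes with a span of 5 to 15 kb, the class of H3f3a, had median ratios of 0.773 and 0.639 at 5 min and of 1.69 and 1.71 at 10 min. H3f3a was above 83.4% to 84.8% of its class in the 4 comparisons. Thus H3f3a stood similarly high in its class at both times. The ratio of H3f3a and the class median were both higher at 10 min. As deposited, the class median was below 1 at 5 min and above 1 at 10 min, and such ratios depend on the scaling of the tables. A ratio above 1 at 5 min was not particular to H3f3a, as the upper quartile of the class was also above 1 in both genotypes.

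H3f3b had ratios of 0.475 ± 0.0609 in WT and 0.339 ± 0.127 in the libraries labelled EloA null at 5 min, and of 0.741 ± 0.159 and 0.857 ± 0.0350 at 10 min. Its class, genes under 5 kb, had medians of 0.773 and 0.623 at 5 min and of 1.03 and 1.06 at 10 min. H3f3b was therefore on the lower side of its class each time, above 30.0% to 39.7% of it. H2afz, of the same class, had ratios of 0.778 ± 0.0203 and 0.552 ± 0.0575 at 5 min and of 0.765 ± 0.157 and 0.669 ± 0.0514 at 10 min. It was near the median of its class at 5 min (above 50.3% of it in WT and 45.0% in the libraries labelled EloA null) and lower in it at 10 min (35.0% and 30.2%).

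H2afv, with a span between 15 and 30 kb, had ratios of 0.414 ± 0.0351 and 0.332 ± 0.0213 at 5 min and of 1.33 ± 0.165 and 1.33 ± 0.113 at 10 min, WT first. Its mean RPKM at 10 min was 3.22 times that at 5 min in WT and 3.99 times in the libraries labelled EloA null, and it was 1.95 and 2.17 times after each library was divided by its median RPKM. In either scaling this was the largest rise among the 5 genes. Its class had medians of 0.527 and 0.476 at 5 min and of 1.44 and 1.41 at 10 min, and H2afv was above 36.9% and 34.2% of its class at 5 min and above 46.0% and 46.8% at 10 min. H2afy, over 60 kb, had ratios of 0.528 ± 0.123 and 0.429 ± 0.0707 at 5 min and of 0.446 ± 0.0593 and 0.436 ± 0.0360 at 10 min. Medians of its class were 0.798 and 0.773 at 5 min and 0.626 and 0.613 at 10 min. Of all 5 genes H2afy had the lowest 10-min ratio, above 13.3% and 13.7% of all expressed genes and above 22.4% and 23.1% of its class.

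**Figure D3:**
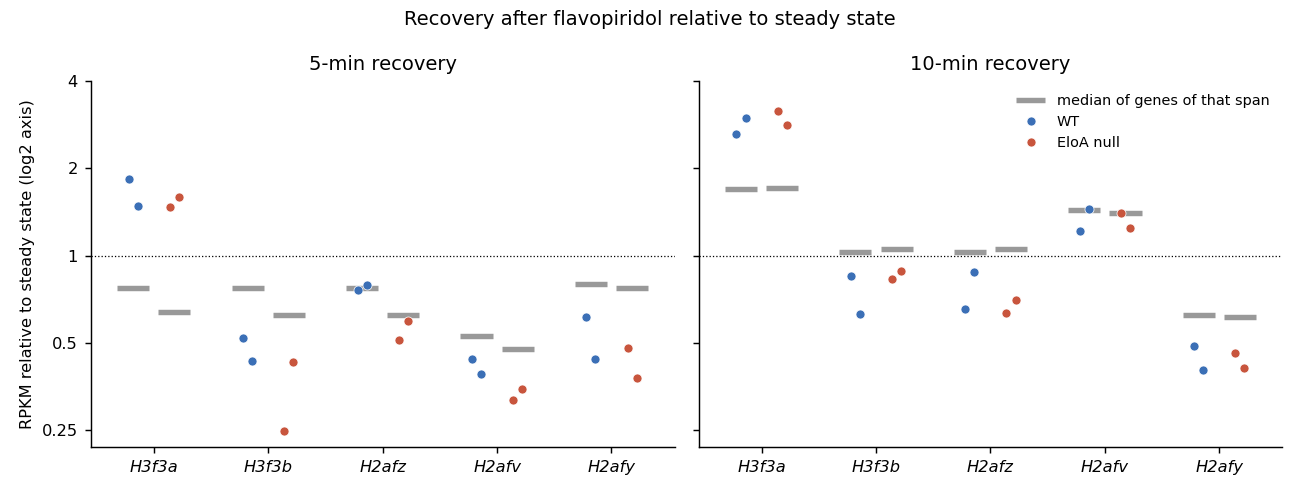
RPKM in each recovery library relative to the mean steady-state RPKM of its genotype, on a log2 axis, at 5 min (left) and 10 min (right); points are libraries (WT blue, labelled EloA null red) and grey bars are medians of expressed genes of the same span class in that genotype. H3f3a lies above its grey bars at both times, with means of 1.66 and 1.53 at 5 min, and H2afy lies below them, with means of 0.446 and 0.436 at 10 min.

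At 5 min 1 member, H3f3a, was more than 1.5-fold higher than in steady state in each genotype, where 15.8% of genes in WT and 14.8% in the libraries labelled EloA null were. More than 1.5-fold lower were 3 members in WT (H3f3b, H2afv and H2afy), and these with H2afz, 4 in all, in the libraries labelled EloA null, against 50.9% and 55.9% of genes. At 10 min H3f3a was the 1 member more than 1.5-fold higher in each genotype, against 33.7% and 34.4% of genes, and H2afy the 1 member more than 1.5-fold lower, against 27.4% and 28.4%. The ratio of H3f3a at 5 min lay close to the limit, and was within 1.5-fold without the first WT 5-min library (1.49) and, for the libraries labelled EloA null, without the second 5-min library or the second steady-state one. At 10 min 2 members in place of 1 were lower without either WT library, or, with the label EloA null, without the second 10-min or the first steady-state library. Dividing each library by its median over genes expressed in all 3 tables moved the ratios at 5 min up and those at 10 min down. H3f3a was then at 2.15 and 2.12 at 5 min and at 2.20 and 2.25 at 10 min, so its further increase between the time points depends on the scaling. The step from 5 to 10 min, as the ratio of mean values, was then 1.02 in WT and 1.06 with the label EloA null for H3f3a, 0.939 and 1.39 for H3f3b, 0.594 and 0.661 for H2afz, and 0.511 and 0.550 for H2afy. Its direction thus turned for H3f3b in WT, and for H2afz and H2afy with the label EloA null. Under that scaling H2afz stood at 1.01 and 0.764 at 5 min, H2afv at 1.05 and 0.998 at 10 min, and 3 members instead of 1 were more than 1.5-fold lower at 10 min in each genotype. At 5 min, 2 members instead of 3 were then lower in WT, and 3 instead of 4 with the label EloA null. H3f3a stood above 1, and H3f3b and H2afy below it, under both scalings.

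Ratios between paralogues within a library do not depend on how libraries or tables were scaled, so these could be tested between conditions. H3f3b was the higher of the H3.3 pair in steady state and H3f3a in both recoveries. In steady state the ratio of H3f3b to H3f3a was 1.26 and 1.34 in WT and 1.11 and 1.51 in the libraries labelled EloA null. At 5 min it was 0.366 and 0.376 in WT and 0.222 and 0.352 in the libraries labelled EloA null, and at 10 min 0.420, 0.273, 0.346 and 0.409 in the same order. All 8 recovery libraries were thus below all 4 steady-state libraries. On the log2 scale the mean was 0.38 ± 0.18 in steady state, -1.63 ± 0.36 at 5 min and -1.49 ± 0.29 at 10 min (SD, n = 4 each, both genotypes). The difference from steady state was -2.01 at 5 min and -1.86 at 10 min, each with p = 0.0286 by the two-sided exact permutation test, the smallest that 4 libraries against 4 allow, and 0.0686 after Benjamini-Hochberg adjustment over 12 comparisons. Given that 6 of these 12 were of 2 against 2 libraries, no adjusted p below 0.0571 could be reached while those stayed above. Between 5 and 10 min the ratio differed by 0.15, within the spread of the libraries (exact permutation p = 0.543, adjusted 0.651).

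For H2A.Z the share of H2afv was first lower and then higher. In steady state the ratio of H2afv to H2afz was 0.257 and 0.205 in WT and 0.178 and 0.147 in the libraries labelled EloA null. At 5 min it was 0.132 and 0.113 in WT and 0.100 and 0.0947 in the libraries labelled EloA null. At 10 min it was 0.427 and 0.379 in WT and 0.36 and 0.286 in the libraries labelled EloA null. No library overlapped with those of another condition. Against steady state the mean log2 ratio was lower by 0.82 at 5 min (difference -0.82) and higher by 0.90 at 10 min, and from 5 to 10 min it was higher by 1.72, or 3.3-fold. Each of these 3 differences had an exact permutation p of 0.0286 and an adjusted p of 0.0686. Within each genotype these differences had the same signs: -0.91 in WT and -0.73 with the label EloA null at 5 min, 0.81 and 0.98 at 10 min, and 1.72 in both from 5 to 10 min. For the H3.3 pair the differences from steady state were -1.80 and -2.22 at 5 min and -1.94 and -1.79 at 10 min, while that between the recoveries was -0.13 in WT and 0.43 with the label EloA null. Without the steady-state library whose labels disagree, the differences from steady state were -2.08 and -1.94 for the H3.3 pair and -0.86 and 0.86 for the H2A.Z pair, with the 5-min value first. The span classes of H2afv (15 to 30 kb) and H2afz (under 5 kb) had median recovery ratios that differed in the same directions as this pair. In WT these medians were 0.527 against 0.773 at 5 min and 1.44 against 1.03 at 10 min. With the label EloA null they were 0.476 against 0.623 and 1.41 against 1.06. The H3.3 pair differs in span class too, under 5 kb for H3f3b and 5 to 15 kb for H3f3a. In WT the medians of these classes were 0.773 against 0.773 at 5 min and 1.03 against 1.69 at 10 min. With the label EloA null they were 0.623 against 0.639 and 1.06 against 1.71. Whether span accounts for the shift of either pair was not tested.

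**Figure D4:**
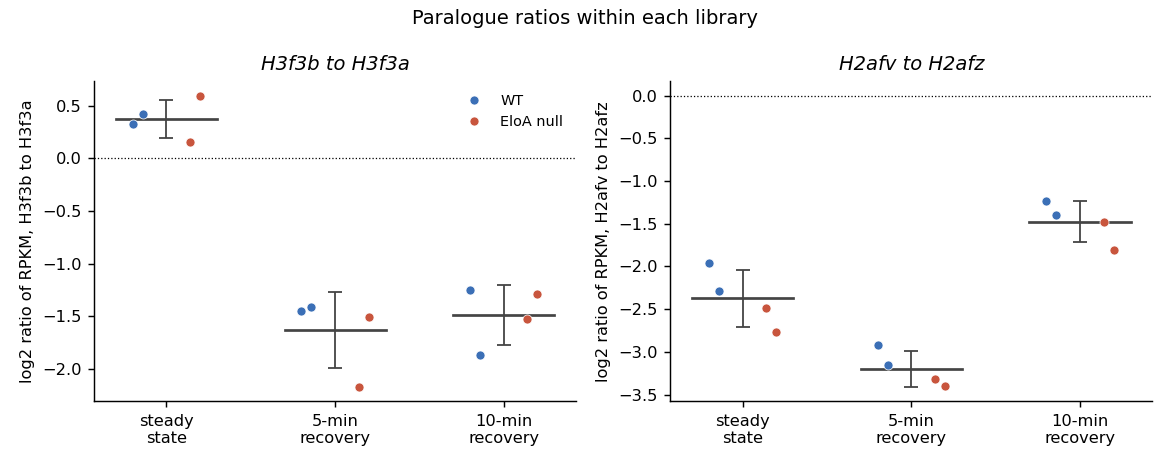
Log2 ratio of RPKM between paralogues within each library, H3f3b to H3f3a (left) and H2afv to H2afz (right), by condition; points are libraries (WT blue, labelled EloA null red), and horizontal lines with bars are the mean and SD of 4 libraries. H3f3b to H3f3a has a mean of 0.38 in steady state and -1.63 at 5 min, and H2afv to H2afz goes from -3.20 at 5 min to -1.48 at 10 min.

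No member passed the test between the genotypes. The question was whether the libraries labelled EloA null transcribed these genes at another level, and limma on log2(RPKM + 0.1) called 0 of 5 members at an adjusted p of 0.05 in steady state, at 5 min or at 10 min. The same was true of all genes, with 0% called of 11347 genes in steady state, 0% of 8985 at 5 min and 0% of 10241 at 10 min, while 2083, 846 and 2098 genes had an unadjusted p under 0.05. By the ratio of mean RPKM, which is used for every count past 1.5-fold, no member was past that limit in any of the 3 conditions, against 9.31%, 12.1% and 12.4% of genes. Libraries of the genotypes did not overlap for 2 members in steady state (H3f3a and H2afz), for 1 at 5 min (H2afv) and for 2 at 10 min (H3f3a and H3f3b), where 53.3%, 40.4% and 55.4% of genes did not overlap.

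The largest steady-state difference was that of H2afz, which was 1.37 times as high in the libraries labelled EloA null, at 11.4 ± 1.04 against 8.28 ± 0.848 RPKM (SD, n = 2 each). On the log2 scale this was 0.45 with a 95% interval from 0.11 to 0.79, an unadjusted limma p of 0.0196 and an adjusted p of 0.189. It was 0.54 without the library whose labels disagree, and 0.26 after a trend with the GC content of the gene was taken out. For H2afz no difference of this size was seen at 5 min (-0.04, interval -0.49 to 0.40), and at 10 min it was 0.27 (interval -0.18 to 0.73). H2afv, which makes the sister protein, differed by -0.04 in steady state (interval -0.28 to 0.19), by -0.32 at 5 min (-0.80 to 0.17) and by -0.05 at 10 min (-0.41 to 0.31). The ratio of H2afv to H2afz was lower for each library labelled EloA null than for either WT library in each condition, by 0.50, 0.32 and 0.33 on the log2 scale (differences -0.50, -0.32 and -0.33), with an exact permutation p of 0.333 each, the smallest possible with 2 against 2.

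H3f3a differed by 0.13 in steady state (95% interval -0.12 to 0.39), by 0.02 at 5 min (-0.47 to 0.52) and by 0.22 at 10 min (-0.07 to 0.52). H3f3b, with its few reads, had the widest intervals: its differences were 0.14 (-0.24 to 0.52), -0.38 (-1.12 to 0.37) and 0.37 (-0.08 to 0.82) in the same order. With 1 library left out it passed 1.5-fold, at -0.76 without the second 5-min library labelled EloA null and at 0.59 without the first WT 10-min library. H2afy differed by 0.03 (-0.22 to 0.27), -0.25 (-0.81 to 0.31) and -0.00 (-0.37 to 0.37). A difference of 1.5-fold lay within the intervals of H3f3b at 5 and 10 min, of H2afz in steady state and at 10 min, and of H2afv and H2afy at 5 min, so these libraries do not show its absence there. For the ratio of H3f3b to H3f3a the genotypes differed by 0.00 in steady state, by -0.41 at 5 min and by 0.15 at 10 min, with exact permutation p of 1, 0.333 and 1. Leaving out 1 library moved the 5-min difference to between -0.74 and -0.0744.

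Whether the genotype difference itself changed between conditions was tested in a fit of all 12 libraries, and 0 of 5 members passed in any of 3 contrasts. Of 11975 genes 0.1% passed between 5-min recovery and steady state, 0.00835% between 10-min recovery and steady state, and 0.0919% between the recoveries. For H2afz the genotype difference was lower by 0.49 at 5 min than in steady state (-0.49, interval -1.001 to 0.01), and the adjusted p from limma was 0.779. For H3f3b it was 0.75 higher at 10 min than at 5 min (interval -0.07 to 1.56), and the adjusted p from limma was 0.923.

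**Figure D5:**
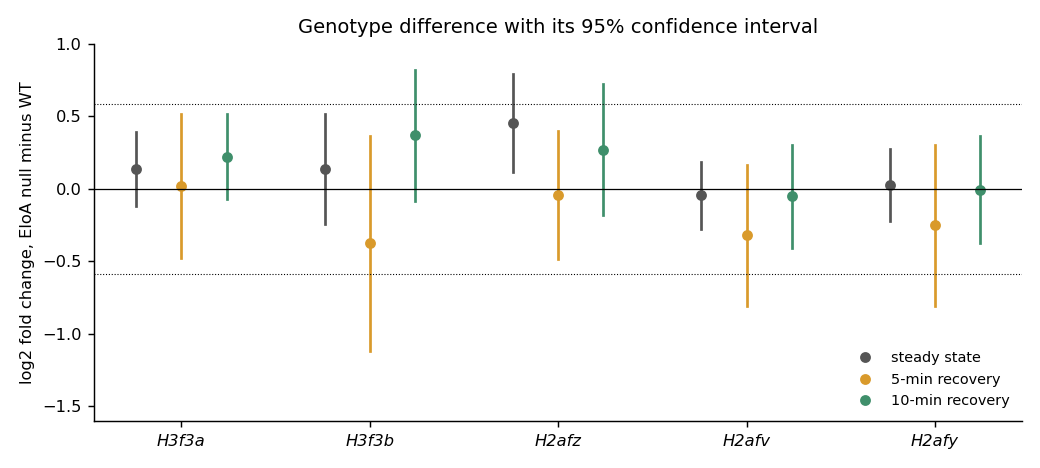
Log2 fold change of nascent RNA between libraries labelled EloA null and WT for each gene, from limma on log2(RPKM + 0.1), with bars for the 95% confidence interval, in steady state (grey), at 5 min (yellow) and at 10 min of recovery (green); dotted lines mark 1.5-fold on this scale. Every point lies between the dotted lines, and the bar of H2afz in steady state, from 0.11 to 0.79, is the one that does not reach 0.

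Genes that act on these variants, and the remaining variants, were looked at with lists chosen alongside the members. None of their genes passed an adjusted p of 0.05 between genotypes in any condition by limma. Of 12 other histone variant genes, 5 were expressed in steady state, with a median log2 fold change of 0.20 beside 0.03 over all genes tested. H2afj, a replacement form of H2A, had the highest value at 0.44 (3.79 RPKM in WT and 5.16 in the libraries labelled EloA null), followed by H2afx at 0.30, the variant phosphorylated at DNA breaks. Lowest were H2afy2, for macroH2A2, at -0.03, and Cenpa, for the centromeric H3, at 0.17.

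Of 10 genes for H3.3 deposition, all were tested, 1 was past 1.5-fold and the median log2 fold change in steady state was -0.13. Daxx, whose product places H3.3 at repeats together with ATRX, was the one past 1.5-fold, with 1.43 RPKM in WT and 2.15 RPKM in the libraries labelled EloA null (ratio 1.51; log2 fold change with the pseudocount 0.55, adjusted p = 0.164), and Cabin1, a HIRA partner, was next at -0.02. Asf1a, the H3-H4 chaperone that hands H3.3 to HIRA, had the lowest value at -0.33, followed by Dek at -0.20. Of 18 genes for H2A.Z exchange, all tested, 1 was past 1.5-fold and the median was 0.02. Highest were Znhit1, a SRCAP subunit, at 0.55 (0.788 against 1.21 RPKM, ratio 1.54, adjusted p = 0.183), and Kat5, the acetyltransferase of the TIP60 complex, at 0.31. Lowest were Mbtd1, a TIP60 subunit, at -0.31 and Srcap, the ATPase that exchanges H2A.Z, at -0.19. In the list of 11 general histone chaperones 0 were past 1.5-fold and the median was -0.04.

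After FP, the H2A.Z exchange genes had a median ratio of 0.545 in WT and 0.460 in the libraries labelled EloA null at 5 min, and of 1.00 and 0.970 at 10 min. At 5 min 11 of 18 were more than 1.5-fold lower in each genotype, where 50.9% and 55.9% of all genes were. The H3.3 deposition genes had medians of 0.828 and 0.773 at 5 min and of 0.860 and 0.813 at 10 min. The replication-dependent histone genes, 69 genes of the name pattern Hist, are given beside the members as values only. They mostly lack introns, so they are not counted over intron lengths as the members are. At 5 min, 15.8% of all genes in WT and 14.8% in the libraries labelled EloA null were more than 1.5-fold higher than in steady state. Of the expressed replication-dependent genes, 32 of 40 in WT and 23 of 45 in the libraries labelled EloA null were, with medians of 2.02 and 1.5. At 10 min their medians were 0.772 and 0.670. Among the members, H3f3a with 1.66 and 1.53 was nearest to the first pair, and H2afz with 0.765 and 0.669 to the second.

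Genes with a profile most like that of each member over the 12 libraries were found among 7922 genes with a mean above 1 RPKM, by the root mean square difference of log2(RPKM + 0.1) after each gene was centred on its mean. For H3f3a they were Mtrf1l (0.0959), Mzt1 (0.0999) and Ilf2 (0.108), where the median gene was at 0.724. For H3f3b they were Ppan (0.153), Cenpx (0.156) and Irf3 (0.169), and for H2afz Gpr107 (0.151), 2700081O15Rik (0.161) and Rpl28 (0.164). Those of H2afv were Pank2 (0.0945), Dcakd (0.102) and Nsmce4a (0.103), and those of H2afy were Epp13 (0.0939), Gcnt2 (0.0980) and E2f3 (0.117). No member was among the closest genes of another. H3f3a and H3f3b differed by 0.936 and H2afz and H2afv by 0.685, and each was further from its paralogue than from the median gene, which for H3f3b was at 0.632, for H2afz at 0.672 and for H2afv at 0.606. The closest members were H2afz and H2afy, at 0.386.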

How the data were processed

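Per the labels, Bru-seq was made for 12 of 28 samples; 16 more samples, of binding assays, were not used here. The authors aligned paired-end reads to mm10 and dm3 with Bowtie2 2.3.4.3, kept unique reads, counted them in RefSeq genes with featureCounts 1.6.1 and normalized with edgeR; values were deposited as RPKM, 1 table per condition, with replicates apart. Use of strand in counting is not given in the sources used here. The deposited mean columns were not used.

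Library sizes and reads were worked out from the steps of the RPKM values (within 0.01, whole reads came out for at least 96.2% of expressed intron-bearing genes). Genotypes were compared within a table by limma 3.58.1 (R 4.3.3, intensity trend) on log2(RPKM + 0.1), for genes with a mean above 0.5 RPKM in either genotype, with Benjamini-Hochberg adjustment over all of them; fold changes on this scale understate those of low genes. Paralogue ratios were compared by exact permutation in Python 3.11.15. Scripts were tested on simulated data. Genes were matched to GRCm38.p6 by symbol (24447) or older symbol (423). Named genes were the 5 members, Eloa, and from 3 lists the highest 2 and lowest 2 steady-state differences, with the 3 closest profiles per member; Nanog, Pou5f1, Dcn and Lum, of the marker lists, and Gm31485, which overlaps H2afy, were named after their values were seen. The members and lists were chosen with earlier results of these data known.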

Additional observations from a re-analysis of the deposited data

How the results depend on the processing

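With 2 libraries per group, depth limits H3f3b most (18 reads in 1 library). Alternative fits used pseudocounts of 1 and 0.01, other filters, centring, quantile normalization, robust estimates and all 12 libraries together. A GC trend was also removed, a setting chosen after seeing the data. In each of these, 0 members were called between genotypes, as in the main fits. Only centring, quantile normalization and removal of the GC trend could change the ratio of mean RPKM, and under these 0 members were past 1.5-fold. The remaining settings leave that ratio as it is, so they do not check it. Within a table, the differences between replicates were only weakly correlated between the genotypes (2 pairs per table, correlations of 0.115, 0.146 and 0.0972). Pairing of same-numbered libraries across tables was not checked. With the replicate block 0 members were called in each comparison. Leaving out 1 library called 0 members, and 0 to 1 were past 1.5-fold at 5 min (H3f3b, -0.76 without the second library labelled EloA null) and at 10 min (H3f3b, 0.59 without the first WT library).

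Among small genotype differences, the sign turned for H2afy in steady state (-0.0321 when centred, -0.00911 by quantiles, -0.11 without the GC trend) and for H2afz at 5 min (0.02497 when centred). With 1 library left out it turned in steady state for H2afv (-0.10 to 0.0108), H2afy (-0.0329 to 0.0886) and H3f3b (-0.0320 to 0.31), at 5 min for H3f3a (-0.13 to 0.17), H3f3b (-0.76 to 0.00612) and H2afz (-0.15 to 0.0636), and at 10 min for H2afy (-0.13 to 0.12) and H2afv (-0.17 to 0.0726). The change of the difference from steady state turned at 5 min for H3f3a (-0.26 to 0.0367) and at 10 min for H2afv (-0.13 to 0.12), H2afy (-0.16 to 0.10), H3f3a (-0.00126 to 0.18) and H2afz (-0.39 to 0.0275). The cause was not tested.

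Members more than 1.5-fold higher at 5 min went from 1 to 0 without the first WT 5-min library, and in the libraries labelled EloA null without the second 5-min or second steady-state library, since H3f3a lay near the limit (range 0 to 1). Members lower at 5 min numbered 2 in WT and 3 in the libraries labelled EloA null after median scaling, in place of 3 and 4. Members lower at 10 min numbered 3 after median scaling in both genotypes and 1 to 2 with a library left out (2 without either WT 10-min library, without the second 10-min library labelled EloA null, or without the first such steady-state library). For the 5 paralogue differences of -2.01, -1.86, -0.82, 0.90 and 1.72, permuting within genotypes gave p = 0.0556 by the exact permutation test in place of 0.0286, the smallest that it allows. Leaving out 1 library, the H2afv to H2afz difference from steady state was -0.95 to -0.69 at 5 min and 0.77 to 1.03 at 10 min, with p up to 0.0571. For H3f3b to H3f3a the sign turned where it was near 0: between recoveries (-0.0312 to 0.28) and between genotypes in steady state (-0.22 to 0.22) and at 10 min (-0.16 to 0.46). Of the 20 recovery ratios, those of H3f3b in the libraries labelled EloA null at 5 min moved by less than 1 SD under median scaling, and the others moved by more.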
